A study of Mus musculus with 14 samples.

Results

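Cytochrome P450 enzymes are heme proteins, and most of them sit in the endoplasmic reticulum, where they insert oxygen into fatty acids, steroids, drugs and toxins. Families 1, 2 and 3 are best known for drug and toxin oxidation in hepatocytes, family 4 for the hydroxylation of fatty acids and eicosanoids, and the higher-numbered families mostly for steroids, vitamins and retinoids. The members described here are the 90 genes whose symbol has the form Cyp, family number, subfamily letters and gene number, out of 48794 genes counted. The bile acid genes Cyp7a1, Cyp8b1, Cyp27a1 and Cyp7b1 were left out by rule. So were 19 pseudogene symbols and 7 symbols of another form, among them Cyp51. All 90 members are annotated as protein coding, and they fall into 14 families and 35 subfamilies.

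RNA had been sequenced in 14 libraries from untreated wild-type (WT) mice, per the labels. Of these, 12 came from CD45+ leukocytes sorted from liver needle biopsies, at 2500, 5000, 10000 or 20000 cells per sample with 3 libraries each. The other 2 came from bulk liver, which holds every cell type of the organ. No age, sex or strain is given in the labels, and none ties a library to an animal. The p-values below therefore measure only the spread between these libraries, which may be technical. Total counts per library ran from 6723357 to 14496314.

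The labels were checked against cell type lists. Of 20 hepatocyte genes all 20 were lower in sorted cells, where the list held 0.0183% to 0.0280% of counts, against 8.22% and 8.28% in bulk liver. None of the 20 was at 0 in the sorted libraries. Of 10 pan-leukocyte genes all 10 were higher in sorted cells, as were 7 of 7 monocyte, 7 of 8 neutrophil, 7 of 8 dendritic cell, 7 of 7 B cell, 7 of 7 T cell and 6 of 6 natural killer cell genes. Of 10 Kupffer cell genes 1 was higher and 9 were lower, but by library totals 5 were higher and 0 lower. The lists for sinusoidal endothelium (1 higher, 7 lower of 8), stellate cells (0 and 8 of 8), cholangiocytes (0 and 4 of 5 tested) and erythroid cells (0 and 4 of 4 tested) were mostly lower. In such samples fewer cells of a type and less RNA per cell cannot be told apart.

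P450 transcripts were abundant in bulk liver and scarce in the sorted leukocytes. Length-scaled transcript levels (TPM), which can be compared between genes, summed over the members to 379, 424 and 458 (lowest, median and highest of 12) in sorted cells, against 13940 and 14083 in bulk liver. The means were 423 ± 25.6 TPM in sorted cells (SD, n = 12) and 14011 ± 101 TPM in bulk liver (SD, n = 2). As a share of all counts, the members took 0.0521% to 0.0609% in sorted cells and 2.79% on average in bulk liver. The groups did not come near each other on either measure. What made up the sum also differed. The Cyp4f subfamily held 80.2% of member TPM in sorted cells and 1.52% in bulk liver, whereas Cyp3a held 2.14% in sorted cells and 30.5% in bulk liver.

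Within bulk liver a small number of genes carried most of the message. Of the 90 members, 47 reached 1 TPM, 36 reached 10 TPM and 20 reached 100 TPM, while 23 had no count in either bulk library and 8 had none in any of the 14 libraries. The 10 most abundant members held 80.3% of member TPM, and the first 3 of them held 47.9%. The bulk libraries gave nearly the same levels. Among the 36 members at 10 TPM or more the median ratio between them was 1.05, and the largest, for Cyp2c40, was 1.50.

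Cyp3a was the leading subfamily, with 4242 and 4313 TPM in the bulk libraries. Nearly all of it was Cyp3a11 (chr5:145854426-145879964, minus strand), a broad drug and steroid oxidase induced through the pregnane X receptor, at 3726 and 3768 TPM. Its neighbour Cyp3a25 had 428 and 453 TPM. The coding sequence of Cyp3a11 is 95.2% identical to that of Cyp3a41a, and that of Cyp3a25 97.5% identical to that of Cyp3a59, so counts within this cluster may be split between copies. The same holds for 33 members with at least 90% identity to another Cyp gene, 19 of them with at least 95%.

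Cyp2c followed with 21.5% of member TPM from 15 genes, all on chromosome 19. Cyp2c29, an arachidonate epoxygenase of mouse liver, led it with 962 and 964 TPM. Cyp2c70, which in mice hydroxylates bile acids to muricholic acids, had 656 and 682 TPM, and Cyp2c50 had 468 and 442 TPM. Cyp2c65 and Cyp2c66, of the same subfamily, had no count in bulk liver. Cyp2d, 8 genes on chromosome 15, held 14.3%, led by Cyp2d9, a testosterone 16-alpha-hydroxylase, with 897 and 933 TPM and by Cyp2d10 with 682 TPM in both libraries.

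Several subfamilies were represented by 1 abundant gene. Cyp2e1, the ethanol- and acetaminophen-oxidising enzyme of pericentral hepatocytes, had 1840 and 1749 TPM. Cyp2f2, a periportal enzyme that oxidises naphthalene, had 1144 and 1207 TPM. Cyp1a2, the pericentral caffeine demethylase, had 411 and 418 TPM. These 3 genes together with Cyp3a11 were each more abundant than the whole of Cyp2j, whose leading gene, the epoxygenase Cyp2j5, had 227 and 220 TPM.

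Genes known for their response to inducers had unlike levels in these untreated livers. Cyp1a1, a classical target of the aryl hydrocarbon receptor, had 1.08 and 1.26 TPM, far below its neighbour Cyp1a2. Cyp2b10, the classical target of the constitutive androstane receptor, had 0.65 and 1.23 TPM. Cyp4a10, a fatty acid hydroxylase under PPARalpha, had 78.0 and 89.7 TPM. Cyp2a12, a steroid hydroxylase, and Cyp2u1, a fatty acid hydroxylase, are given as the highest of their subfamilies, not for a response to inducers. Cyp2a12 had 277 and 274 TPM, and Cyp2u1 had 33.1 and 40.0 TPM.

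Some members are known to differ by sex in mouse liver, and the labels give no sex. Those named here were picked after their values were seen. They are only a part of the members that differ by sex. Members left out here may go the other way, so no sex can be read from those named. Cyp2d9 is male-predominant in mice and was among the 5 most abundant members. Cyp2b9 and Cyp2b13 are female-predominant in adult mice, and neither had a count in bulk liver. Cyp3a44, also female-predominant, had 0.35 and 0.47 TPM.

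Other subfamilies were low or without counts. Cyp26a1, the main hepatic retinoic acid hydroxylase, had 5.96 and 5.42 TPM, and its relatives Cyp26b1 (0.54 and 0.75 TPM) and Cyp26c1 (0.07 and 0 TPM) had less. Cyp17a1, the steroid 17-alpha-hydroxylase, had 4.20 and 2.57 TPM. Cyp21a1, the adrenal 21-hydroxylase, Cyp1b1, an extrahepatic estrogen hydroxylase, and Cyp46a1, the cholesterol 24-hydroxylase of the brain, were below 1 TPM, as were Cyp2g1, which is best known from olfactory mucosa, and Cyp2t4. The aromatase Cyp19a1, the aldosterone synthase Cyp11b2, the vitamin D hydroxylases Cyp24a1 and Cyp27b1 and the side-chain cleavage enzyme Cyp11a1 had no count in bulk liver.

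**Figure D1:**
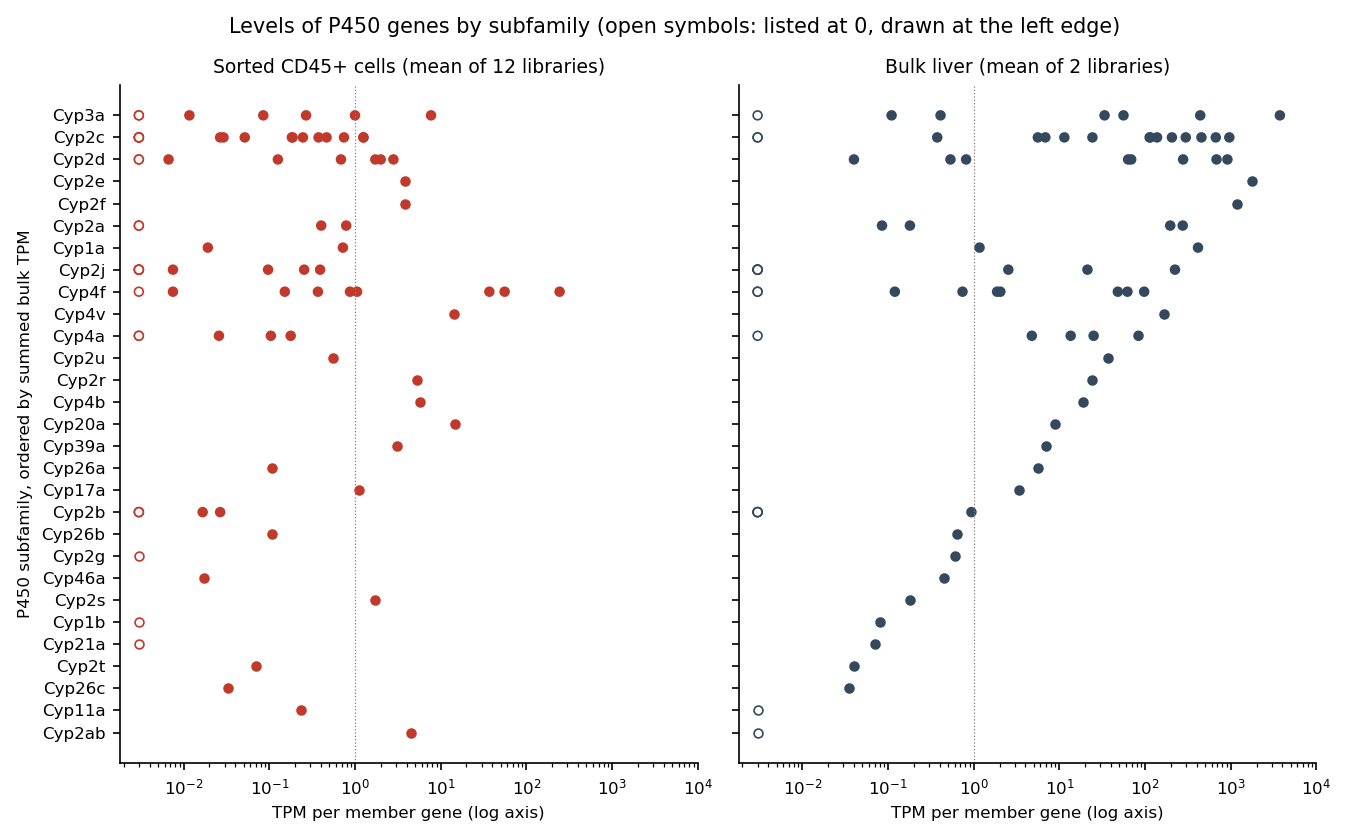
TPM of each member gene (1 point per gene, log axis) by subfamily, as the mean of 12 sorted libraries on the left and of 2 bulk liver libraries on the right; the dotted line is 1 TPM. In bulk liver Cyp3a11 at 3747 TPM stands at the top and 20 genes pass 100 TPM, while in sorted cells the 3 points furthest right are Cyp4f genes.

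Nearly all P450 genes that could be tested were lower in the sorted leukocytes. Counts scaled to library size with TMM factors (CPM) were compared with the edgeR quasi-likelihood test, adjusted by Benjamini-Hochberg over all 16294 genes tested. Of the 90 members, 54 had enough counts to be tested, 49 were lower in sorted cells and 5 were higher (47 and 5 by library totals). A gene could pass the count filter through 1 group alone, which largely fixes the direction for such members. In the 12 sorted libraries alone 29 members passed it. Over all genes 38.5% were called lower and 41.8% higher. The 36 untested members reached at most 0.94 TPM in bulk liver. The median log2 fold change of the tested members was -9.94, also with the 4 members that had no count in 1 group set at their bound, and 0.17 over all genes. It was -9.94 for the hepatocyte list too, whose 20 genes ran from -11.88 to -6.98. All 49 members called lower had every sorted library below both bulk libraries. The share of all genes with such groups is not given here, so this is not a trait particular to the members.

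The abundant bulk genes were lower in sorted cells by a very large factor. Of the 20 members at 100 TPM or more in bulk liver, all 20 were lower. In 19 of them sorted cells held 0.0375% to 0.101% of the bulk CPM, and the other was Cyp4v3. These shares depend on the scale. The sorted to bulk ratio of Cyp3a11 was 0.00062 in CPM and 0.0021 in TPM, and that of Cyp2f2 0.0010 and 0.0033. Cyp3a11 had 7.82, 11.5 and 16.2 CPM (lowest, median and highest) in sorted cells, against 18850 and 19096 CPM in bulk liver. Its log2 fold change came to -10.67 (SE 0.10; adjusted p = 1.94e-21, edgeR). Cyp2e1 had 2.91, 4.07 and 6.15 CPM in sorted cells, against 7251 and 6883 CPM in bulk liver, a log2 fold change of -10.75 (SE 0.08). The groups lay far apart for both genes, and all 12 sorted libraries still held counts of each.

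The other leading bulk members had drops of a like size. Log2 fold changes were -9.99 for Cyp2f2, -11.26 for Cyp2c29, -10.79 for Cyp2d9, -10.29 for Cyp2d10, -11.05 for Cyp2c70, -11.02 for Cyp2c50, -10.69 for Cyp3a25 and -10.88 for Cyp1a2. By subfamily the tested members were lower in 12 of 12 cases for Cyp2c, 6 of 6 for Cyp2d, 5 of 5 for Cyp3a and 4 of 4 for Cyp4a. Their medians ran from -10.93 for Cyp2c to -10.34 for Cyp2d. Some of these members, such as Cyp4a32 with 2 counts in sorted cells, passed the count filter through bulk liver alone. Of the 49 lower members, 37 had a fold change within the range of the hepatocyte list, 1 (Cyp2c54, -11.96) was below it and 11 were above it. The hepatocyte list itself differed between the groups by a like factor, and its part in the residual counts of these members was not tested.

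**Figure D2:**
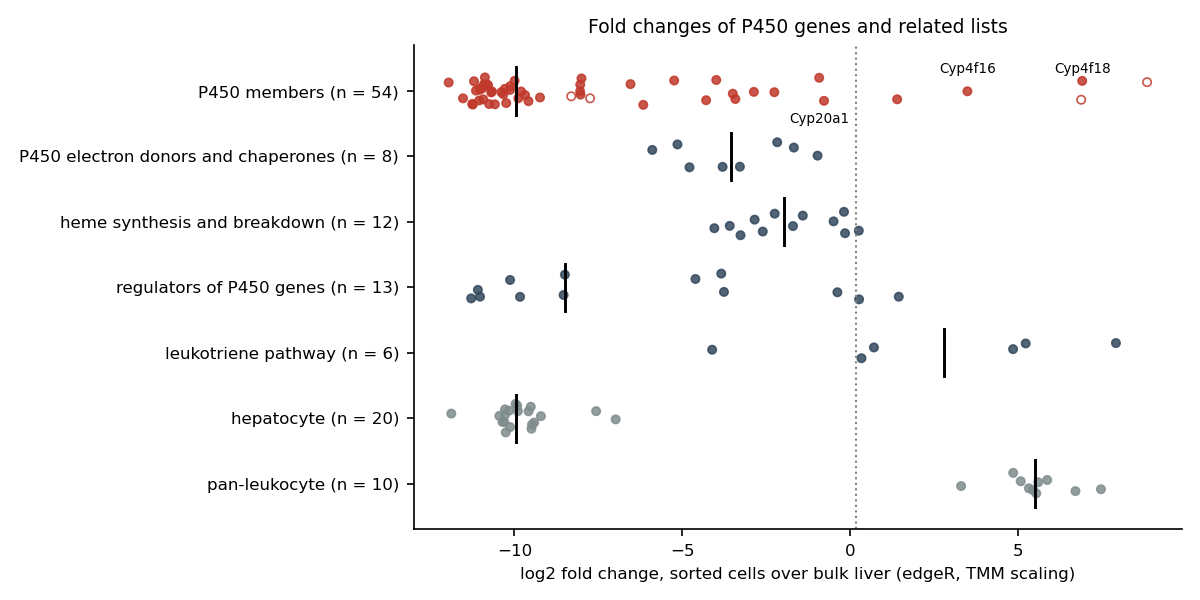
Log2 fold changes, sorted cells over bulk liver, of the tested P450 members and of related gene lists (1 point per gene; open points have no count in 1 group, so their place depends on the model; black bars are medians; the dotted line is the median of all genes at 0.17). The P450 and hepatocyte medians are both -9.94, and the labelled P450 genes at the right are Cyp4f16 at 3.50 and Cyp4f18 at 6.92, with the open points of Cyp4f37 at 6.89 and Cyp2ab1 at 8.85 beside and beyond the second.

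A group of 20 members averaged at least 1 CPM in sorted cells, with counts in all 12 sorted libraries. Of them 5 were higher in sorted cells and 15 lower. The fold changes of 14 were above the range of the hepatocyte list, and those of Cyp3a11, Cyp2e1, Cyp2f2, Cyp2c29, Cyp2d9 and Cyp2d10, the most abundant genes of bulk liver, were within it. In TPM, the 5 most abundant members in sorted cells, Cyp4f18, Cyp4f16, Cyp4f13, Cyp20a1 and Cyp4v3, held 86.5% of the sum there.

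Cyp4f18 was by far the leading P450 gene of the sorted leukocytes. It encodes the mouse enzyme that hydroxylates leukotriene B4, a neutrophil chemoattractant, in polymorphonuclear leukocytes. Its level averaged 244 TPM in sorted cells, against 0.45 and 1.03 TPM in the bulk libraries. On the CPM scale it had 255, 270 and 300 (lowest, median and highest) in sorted cells, against 2.14 and 2.31 in bulk liver, and every sorted library was far above both bulk libraries. The log2 fold change came to 6.92 (SE 0.13; adjusted p = 3.97e-20, edgeR), on 34835 counts in sorted cells and 17 in bulk liver. The gene (chr8:71988482-72009626, minus strand) shares 181 bases of exon, 9.76% of its own, with Zfp961 on the other strand, which had 10214 counts in sorted cells and 114 in bulk liver. Without a stated strand setting, reads in that stretch cannot be assigned to either gene.

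Cyp4f16 was the second. This fatty acid hydroxylase of the same subfamily (chr17:32536558-32551798, plus strand) had 50.2, 57.2 and 69.2 CPM in sorted cells, against 4.02 and 6.15 CPM in bulk liver. The groups did not overlap, and the log2 fold change came to 3.50 (SE 0.19; adjusted p = 1.61e-12, edgeR). Its neighbour Cyp4f37 had 196 counts in sorted cells and none in bulk liver, which makes it at least 3.88-fold higher when the bulk group is set at 3 counts (adjusted p = 0.0022, edgeR). The Cyp4f37 coding sequence is 92.2% identical to that of Cyp4f16, so some of its counts may belong to the more abundant copy.

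The remaining Cyp4f genes did not follow. Cyp4f13 (chr17:32924688-32947402, minus strand) was high in both kinds of sample, with 32.8, 37.2 and 47.6 CPM in sorted cells against 182 CPM in each bulk library. It was lower in sorted cells, with a log2 fold change of -2.25 (SE 0.09; adjusted p = 1.21e-14, edgeR), and its TPM averaged 37.0 in sorted cells and 48.1 in bulk liver. Cyp4f14, which has been shown to hydroxylate leukotriene B4 in mouse liver, had 0, 0.37 and 1.99 CPM in sorted cells against 493 and 475 CPM in bulk liver, a log2 fold change of -9.88. Cyp4f15 had a log2 fold change of -10.58. Cyp4f17 was only slightly lower, with 3.25, 4.88 and 6.19 CPM in sorted cells against 9.11 and 7.43 CPM in bulk liver. Its log2 fold change of -0.77 (adjusted p = 0.0055, edgeR) became 0.43 by library totals, and without bulk replicate 1 it was -0.56 with an adjusted p of 0.14.

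**Figure D3:**
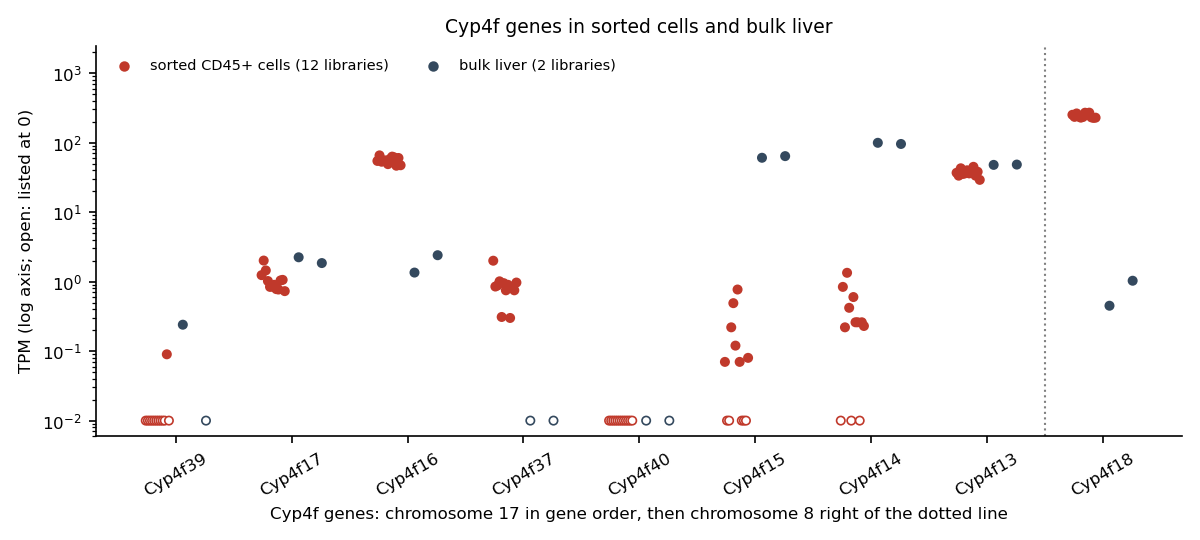
TPM of the 9 Cyp4f genes in every library (log axis; red for the 12 sorted libraries, dark for the 2 bulk libraries; open points are listed at 0 and drawn near the bottom), with the 8 genes of chromosome 17 in gene order and Cyp4f18 of chromosome 8 at the right. Cyp4f16 and Cyp4f18 are higher in sorted cells, Cyp4f14 and Cyp4f15 are higher in bulk liver, and Cyp4f13 is close in both at 37.0 and 48.1 TPM.

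The genes with opposite patterns lie beside each other. The 8 Cyp4f genes other than Cyp4f18 sit within 494.7 kb of chromosome 17, between bases 32452723 and 32947402. Among them 2 were higher, 2 were not tested and 4 were lower, of which Cyp4f17 was not lower by library totals. Cyp4f18 lies alone on chromosome 8, and its coding sequence is 80.6% identical to that of Cyp4f14, the closest. In a cluster on chromosome 7 (bases 25802475 to 27158668) lie 13 members, 3 of them lower, 9 untested and 1, Cyp2s1, higher. The groups of Cyp2s1 overlapped and its call was lost in 8 alternatives, so a mixture there rests on a weak call.

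Promoter windows of 300 bases, 250 before and 50 after the start of the gene, are given for 2 Cyp4f genes called higher in sorted cells (Cyp4f18, Cyp4f16), 2 called lower (Cyp4f13, Cyp4f14) and the 2 most abundant members of bulk liver. They come from RefSeq on GRCm38.p6, in the direction of transcription: Cyp4f18 chr8:72009577-72009876 (minus), Cyp4f16 chr17:32536307-32536606 (plus), Cyp4f13 chr17:32947312-32947611 (minus), Cyp4f14 chr17:32917293-32917592 (minus), Cyp3a11 chr5:145879805-145880104 (minus) and Cyp2e1 chr7:140763569-140763868 (plus). Both strands were searched for the letters TATAAA of the TATA box, for CCAAT of the box of that name, for GTTAAT as a site of the factor HNF1, for CAAAGTCCA as a site of HNF4, for TTNNGCAA as a site of the C/EBP factors, for GAGGAAGT as a site of PU.1 and for CCGGAAGT as the core of ETS factors. Capitals mark the matches, and none overlap in these windows.
Cyp4f18: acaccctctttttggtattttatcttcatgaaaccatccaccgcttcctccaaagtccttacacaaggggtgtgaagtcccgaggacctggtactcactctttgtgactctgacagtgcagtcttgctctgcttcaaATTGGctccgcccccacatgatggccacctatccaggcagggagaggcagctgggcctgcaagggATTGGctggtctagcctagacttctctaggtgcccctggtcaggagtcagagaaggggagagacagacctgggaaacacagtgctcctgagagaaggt
Cyp4f16: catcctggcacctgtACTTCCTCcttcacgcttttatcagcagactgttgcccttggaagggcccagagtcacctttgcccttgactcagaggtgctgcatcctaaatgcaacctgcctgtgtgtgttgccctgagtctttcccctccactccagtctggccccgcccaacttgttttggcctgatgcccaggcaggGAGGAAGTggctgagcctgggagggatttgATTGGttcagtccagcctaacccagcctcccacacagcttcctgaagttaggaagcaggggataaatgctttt
Cyp4f13: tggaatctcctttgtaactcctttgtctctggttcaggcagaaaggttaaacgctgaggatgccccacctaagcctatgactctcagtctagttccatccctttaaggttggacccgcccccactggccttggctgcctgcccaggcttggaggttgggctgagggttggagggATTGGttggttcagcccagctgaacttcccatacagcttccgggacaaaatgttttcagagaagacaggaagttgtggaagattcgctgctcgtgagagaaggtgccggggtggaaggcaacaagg
Cyp4f14: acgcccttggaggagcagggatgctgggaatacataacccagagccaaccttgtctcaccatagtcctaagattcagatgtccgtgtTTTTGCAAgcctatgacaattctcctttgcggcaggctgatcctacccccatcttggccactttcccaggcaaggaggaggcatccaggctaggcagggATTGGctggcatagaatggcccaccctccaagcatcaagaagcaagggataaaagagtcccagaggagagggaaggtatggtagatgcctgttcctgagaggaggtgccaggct
Cyp3a11: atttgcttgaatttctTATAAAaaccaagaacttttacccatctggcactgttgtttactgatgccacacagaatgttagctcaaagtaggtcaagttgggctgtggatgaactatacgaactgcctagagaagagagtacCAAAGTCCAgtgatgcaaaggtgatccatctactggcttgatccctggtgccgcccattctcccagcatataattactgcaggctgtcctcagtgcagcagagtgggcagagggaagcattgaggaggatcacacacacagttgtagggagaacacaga
Cyp2e1: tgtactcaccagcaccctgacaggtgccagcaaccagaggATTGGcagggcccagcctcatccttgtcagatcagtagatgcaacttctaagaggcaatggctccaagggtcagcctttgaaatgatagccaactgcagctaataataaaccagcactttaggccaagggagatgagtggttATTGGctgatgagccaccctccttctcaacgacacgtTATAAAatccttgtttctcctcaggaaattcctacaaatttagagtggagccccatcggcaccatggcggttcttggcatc

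All 4 Cyp4f windows hold a CCAAT box read on the opposite strand (ATTGG), at 48 and 113 bases before the start in Cyp4f18, at 23 in Cyp4f16, at 76 in Cyp4f13 and at 64 in Cyp4f14. The bulk gene Cyp2e1 holds it as well, at 68 and 210. Cyp4f14 holds the C/EBP letters at 163 bases before the start. Cyp4f16 also holds the PU.1 letters at 53 bases before the start and, on the other strand, at 235. PU.1 is a transcription factor of myeloid and B cells. The bulk genes hold the letters TATAAA, at 31 bases before the start in Cyp2e1 and at 234 in Cyp3a11, and Cyp3a11 has the HNF4 letters at 109. HNF4 is a nuclear receptor of hepatocytes. The RefSeq start lies 110 bases from the annotated 5′ end of Cyp3a11 in GENCODE and 80 bases from that of Cyp2e1, and 41 bases or fewer in the Cyp4f genes.

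Windows were found for 71 of the 90 members. Of these, 17 had 100 TPM or more in bulk liver and a fold change within or below the range of the hepatocyte list. Another 10 were sorted-cell members with a fold change above that range. TATAAA was in 29 of the 71, in 12 of the 17 and in 0 of the 10, against 13.6% of all 32851 windows. CAAAGTCCA was in 8 of 71, 4 of 17 and 0 of 10, against 0.475% of all windows. GAGGAAGT was in 6 of 71, 2 of 17 and 3 of 10, against 3.20%. CCAAT was in 33 of 71, 9 of 17 and 6 of 10, against 37.4%. GTTAAT (8 of 71, against 7.10%), TTNNGCAA (16 of 71, against 10.8%) and CCGGAAGT (0 of 71, against 3.89%) complete the set. For each member only the window of the RefSeq start nearest its annotated gene start was used. Among the 32851 windows no such choice was made, so the member shares and the share over all windows differ in make-up. Members of a cluster are copies of each other and share promoter letters, so these counts are a description.

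Beyond Cyp4f, 2 members of family 2 were higher in sorted cells. Cyp2ab1 (chr16:20308387-20325404, minus strand), a gene with no settled substrate, had 3.41, 5.73 and 10.5 CPM in sorted cells and no count in either bulk library. With 784 counts against 0 it was at least 15.5-fold higher (adjusted p = 3.30e-06, edgeR). Cyp2s1, an extrahepatic enzyme that acts on retinoids and eicosanoids, had 1.45, 2.75 and 5.30 CPM in sorted cells against 0.27 and 1.79 CPM in bulk liver, where it had 8 counts in all. The groups overlapped. Its log2 fold change came to 1.41 (SE 0.59; adjusted p = 0.036, edgeR), and without bulk replicate 1 it was 0.69 with an adjusted p of 0.36.

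A further set was lower in sorted cells but by far less than the hepatocyte list. Cyp4v3, a fatty acid hydroxylase whose human counterpart is mutated in a crystalline retinal dystrophy, had 29.0, 33.2 and 37.9 CPM in sorted cells against 1226 and 1282 CPM in bulk liver. Its log2 fold change came to -5.24 (SE 0.06; adjusted p = 2.46e-23, edgeR). Cyp20a1, an enzyme with no known substrate, had 15.5, 21.2 and 26.6 CPM in sorted cells against 41.2 and 38.4 CPM in bulk liver. Its groups did not overlap, and its log2 fold change came to -0.92 (SE 0.13; adjusted p = 3.77e-06, edgeR) but 0.29 by library totals and 0.69 on log2(TPM + 0.1). The mean level was 14.7 TPM in sorted cells and 8.94 TPM in bulk liver, so the direction for this gene rests on the scale.

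Enzymes of vitamin D, sterol and steroid metabolism were among them. Cyp2r1, the vitamin D 25-hydroxylase, had 2.07, 5.54 and 6.52 CPM in sorted cells against 91.1 and 76.9 CPM in bulk liver, a log2 fold change of -3.98 (SE 0.19). Cyp39a1, the 24-hydroxycholesterol 7-alpha-hydroxylase, had 4.72, 6.80 and 8.15 CPM in sorted cells against 45.8 and 50.5 CPM in bulk liver, a log2 fold change of -2.86 (SE 0.18). Cyp17a1 averaged 1.02 CPM in sorted cells, against 11.3 in bulk liver, a log2 fold change of -3.49 (SE 0.48). All 3 were called lower by edgeR, with no overlap between the groups.

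Cyp4b1 and Cyp2d22 complete the members seen in sorted cells. Cyp4b1, an enzyme best known from lung, had 4.52, 6.04 and 11.6 CPM in sorted cells against 75.3 and 65.9 CPM in bulk liver, a log2 fold change of -3.42 (SE 0.20). Cyp2d22 had 3.20, 5.46 and 9.58 CPM in sorted cells against 402 and 413 CPM in bulk liver. The drop of -6.16 on the log2 scale (SE 0.14) was the smallest among the tested Cyp2d genes, whose median was -10.34. Below 1 CPM, Cyp26b1 averaged 0.352 CPM in sorted cells, against 6.78 in bulk liver, a log2 fold change of -4.29, whereas its relative Cyp26a1 had -8.00.

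**Figure D4:**
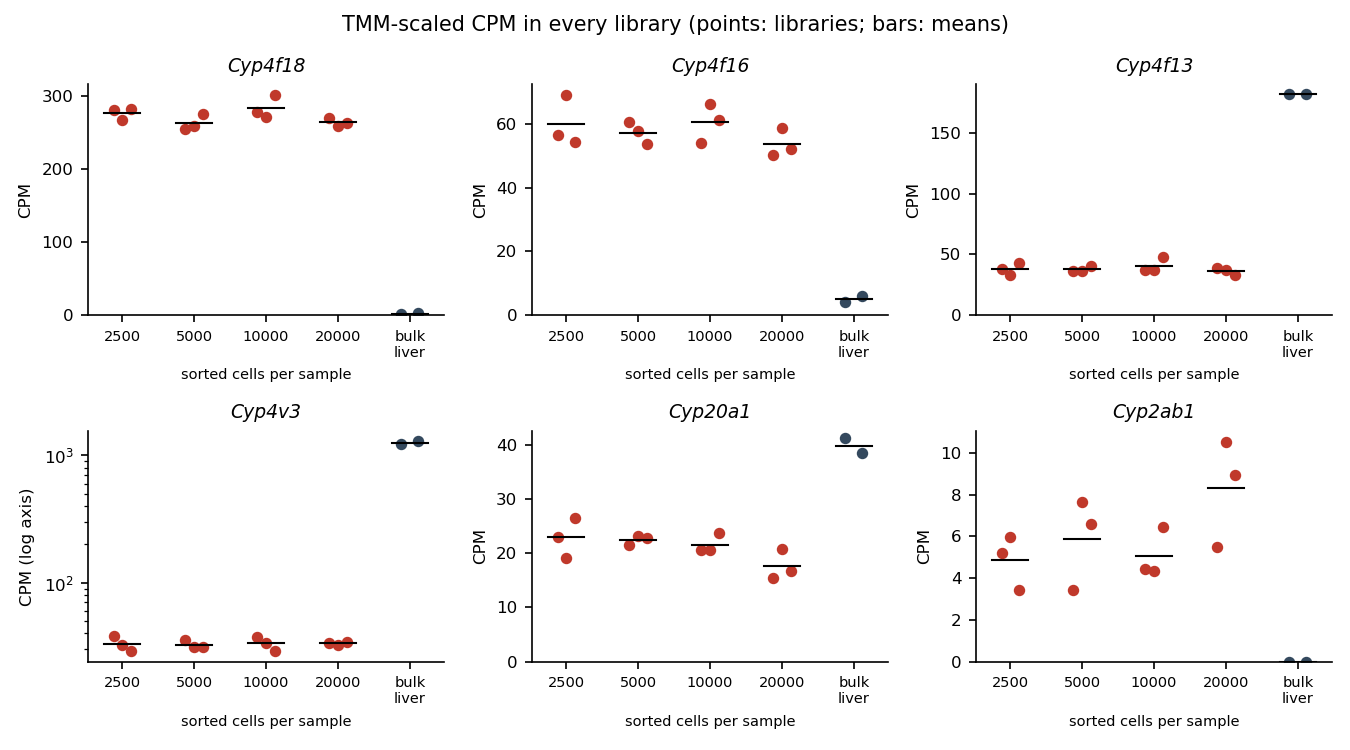
TMM-scaled CPM of 6 members in every library, grouped by the number of sorted cells (red) with bulk liver at the right (dark); points are libraries, bars are means, and the Cyp4v3 axis is logarithmic. Cyp4f18, Cyp4f16 and Cyp2ab1 are higher in all sorted libraries than in bulk liver, Cyp4f13, Cyp4v3 and Cyp20a1 lower (Cyp20a1 at a log2 fold change of 0.29 by library totals), and in each panel the sorted libraries lie on 1 side of bulk liver.

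With the 12 sorted libraries alone and low counts filtered, no P450 gene was called for a difference between the numbers of sorted cells. Cyp4f18 averaged 276 ± 8.33, 263 ± 10.9, 283 ± 15.2 and 264 ± 5.34 CPM at 2500, 5000, 10000 and 20000 cells (SD, n = 3 each). Cyp4f16 averaged 60.1 ± 7.94, 57.3 ± 3.53, 60.5 ± 6.05 and 53.7 ± 4.55 CPM in the same order, and Cyp4v3 33.1 ± 4.48, 32.7 ± 2.51, 33.5 ± 4.04 and 33.5 ± 0.88 CPM. The summed member level was 432 ± 12.4, 419 ± 8.08, 453 ± 6.00 and 390 ± 16.1 TPM. The sum at 20000 cells, 379 to 408 TPM, was below that of every other sorted library, 413 to 458 TPM, and was not tested.

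In the 12 sorted libraries 29 members could be tested, and edgeR called 0 of them for a slope on log2 cell number, for any difference between inputs, or for 2500, 5000 or 10000 against 20000 cells. For any difference and for 2500 against 20000 cells DESeq2 and limma-voom also called 0. With bulk liver kept in the edgeR fit, 4 members were called for any difference (Cyp2c23, Cyp2f2, Cyp2c54 and Cyp2d10) and 1 (Cyp2c23) for 2500 against 20000 cells, and without the filter on low counts 1 (Cyp2c54) was called for any difference. Over all genes 0.0811%, 0.297%, 0.419%, 0.0879% and 0.304% were called in these 5 tests. At an unadjusted p under 0.05 there were 3, 4, 3, 7 and 2 members, and the smallest adjusted p (edgeR) was 0.33, 0.22, 0.27, 0.24 and 0.37. Over all genes 10.7%, 10.8%, 13.3%, 8.13% and 10.2% had an unadjusted p under 0.05.

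The members nearest to a difference were of both kinds. Cyp20a1 averaged 22.9 ± 3.72, 22.5 ± 0.87, 21.6 ± 1.80 and 17.7 ± 2.81 CPM from 2500 to 20000 cells, with an adjusted p of 0.37 for the slope (edgeR). Cyp2ab1 averaged 4.87 ± 1.32, 5.89 ± 2.18, 5.08 ± 1.20 and 8.31 ± 2.58 CPM, with an adjusted p of 0.46. The bulk-type genes Cyp2d10 and Cyp2f2 had log2 differences of 1.44 (SE 0.39) and 0.88 (SE 0.25) at 5000 over 20000 cells. Their adjusted p was 0.24 and 0.27 (edgeR). Cyp3a11 had log2 differences of 0.68 (SE 0.21) at 5000 and 0.55 (SE 0.22) at 10000 over 20000 cells. Its adjusted p was 0.39 and 0.37 (edgeR). The hepatocyte list moved beside them, at 0.0243%, 0.0263%, 0.0235% and 0.0198% of counts on average, and its part in those differences was not tested.

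The partners of the P450 enzymes were lower in sorted cells too. Of 8 matched electron donors and chaperones, 8 were lower in sorted cells, where 38.5% of all genes were called lower and 41.8% higher. The median log2 fold change of the 8 was -3.54, against -9.94 for the enzymes, and 7 were lower by library totals. Por, the reductase that feeds electrons to the microsomal P450 enzymes, had 83.0, 95.7 and 108 CPM in sorted cells against 292 and 317 CPM in bulk liver, a log2 fold change of -1.67. In TPM, Por averaged 57.8 in sorted cells and 63.4 in bulk liver. Pgrmc1, a heme-binding P450 partner, averaged 59.6 CPM in sorted cells, against 3535 in bulk liver, and Cyb5a, cytochrome b5, 55.8 CPM in sorted cells, against 1962 in bulk liver. The mitochondrial reductase Fdxr, at -0.97 with TMM, was at 0.24 by library totals and at 0.91 on log2(TPM + 0.1).

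Genes of heme supply were counted in the same way. Of 12 genes of heme synthesis and breakdown 9 were lower and 1 was higher in sorted cells, where 38.5% of all genes were lower, with a median log2 fold change of -1.97. By library totals 7 were lower and 4 higher, and with DESeq2 size factors 10 were lower and 0 higher. Fech, which inserts iron into heme, averaged 53.9 CPM in sorted cells, against 516 in bulk liver, and Alad, an early enzyme of synthesis, 25.2 CPM in sorted cells, against 414 in bulk liver. Alas1, the rate-limiting enzyme of hepatic heme synthesis, had a log2 fold change of -1.70 with TMM and 0.09 on log2(TPM + 0.1).

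Of 13 regulators of P450 genes 11 were lower in sorted cells and 1 was higher, with a median of -8.50. Over all genes 38.5% were called lower and 41.8% higher. By library totals 10 were lower and 3 higher, and with DESeq2 size factors 11 were lower and 0 higher. Hnf4a averaged 0.438 CPM in sorted cells, against 502 in bulk liver, and the C/EBP factor Cebpa, which myeloid cells also use, 14.6 CPM in sorted cells, against 352 in bulk liver. The xenobiotic receptors, named here after their values were seen, did not move together. Nr1i2, the pregnane X receptor, averaged 0.014 CPM in sorted cells, against 42.2 in bulk liver. Nr1i3, the constitutive androstane receptor, averaged 14.1 CPM in sorted cells, against 200 in bulk liver. Ahr averaged 40.9 CPM in sorted cells, against 52.9 in bulk liver, with overlapping groups, and its log2 fold change of -0.37 (adjusted p = 0.046, edgeR) was 0.83 by library totals. Arnt, the partner of Ahr, was the regulator called higher with TMM, at 0.27.

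The leukotriene pathway, whose product Cyp4f18 degrades, had members called in both directions. Of 6 genes 4 were higher in sorted cells and 1 lower, also by library totals, and 41.8% of all genes were called higher. Lta4h, which makes leukotriene B4, had 130, 147 and 161 CPM in sorted cells against 92.1 and 85.6 CPM in bulk liver. Alox5ap, the 5-lipoxygenase activating protein, averaged 119 CPM in sorted cells, against 4.03 in bulk liver. Alox5 itself averaged 35.1 CPM in sorted cells, against 0.128 in bulk liver, and the high-affinity receptor Ltb4r1 25.2 CPM in sorted cells, against 0.647 in bulk liver. The low-affinity receptor Ltb4r2 was the lower one, with 0.287 CPM in sorted cells, against 4.96 in bulk liver.

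P450 enzymes that carry other symbols were also counted. Tbxas1, thromboxane synthase, had 10.2, 14.4 and 18.9 CPM in sorted cells against 5.09 and 7.95 CPM in bulk liver. It was higher in sorted cells, with a log2 fold change of 1.15. Ptgis, prostacyclin synthase, averaged 1.74 CPM in sorted cells, against 2.89 in bulk liver and was not called.

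Pathways around single members were also counted, beside the 38.5% of all genes called lower. In the vitamin D list, which goes with Cyp2r1, 4 of 6 tested genes were lower in sorted cells and 1 was higher. The vitamin D binding protein Gc averaged 19.2 CPM in sorted cells, against 15637 in bulk liver, and Dhcr7, which draws on the same sterol precursor, 30.7 CPM in sorted cells, against 327 in bulk liver. All 12 genes of sterol synthesis around Cyp51 were lower, with a median of -3.35. Among them Sc5d averaged 73.0 CPM in sorted cells, against 2339 in bulk liver, and Msmo1 92.7 CPM in sorted cells, against 917 in bulk liver.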

How the data were processed

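RNA-seq tables of 14 libraries were used, 12 of sorted CD45+ cells and 2 of bulk liver; RNA was made into cDNA with the SMART-seq v4 kit and tagmented, per the labels' protocols. The authors deposited raw counts per gene and TPM for 48794 genes; another deposited table, of variance-stabilised scores, was not used. Per the submitters' processing notes, the tools were DESeq2 1.34.0, featureCounts 1.5.1, RSEM 1.3.0, STAR 2.5.2b and FastQC 0.11.5, on GRCm38. Their roles, the annotation release and the strand setting are not given in the sources used here. IDs were matched to 48348 symbols.

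Levels were compared between genes in deposited TPM. Counts were tested with edgeR 4.0.16 in R 4.3.3 (quasi-likelihood, robust, TMM factors, filterByExpr by group), with Benjamini-Hochberg adjustment at 0.05 over all genes tested. One fit held all 14 libraries in 5 groups and compared the average over the 4 sorted groups with bulk liver, and fits on cell number held the 12 sorted libraries. The test was tried on simulated data first. CPM are TMM-scaled over the 14 libraries. Folds against a group without counts use a floor of 3 counts over that group. Floors cover counting error only. Alternatives were other scalings, no filter, DESeq2 1.42.0, limma 3.58.1 (voom, log2 TPM), single inputs, a replicate block and leaving out each library.

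Coding identity was computed on GENCODE coding sequences between each member and its closest Cyp genes by shared letters. Members and lists were chosen with earlier results of these data known. Named are the 10 members highest in bulk TPM, the highest of each subfamily, members with at least 1 CPM in sorted cells, members called higher, and the 2 most abundant genes of each list. Genes named beyond this, such as Cyp2c54, Cyp2c40, Cyp1a1, Cyp4f15 and further genes of the lists, were chosen after their values were seen.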

Additional observations from a re-analysis of the deposited data

How the results depend on the processing

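Over 26 alternatives for sorted cells against bulk liver, 28 of the 31 named members that were tested kept their direction and their call. The members called higher numbered 4 to 6 and those called lower 47 to 58. The exceptions were Cyp20a1, at a log2 fold change of 0.29 by library totals and 0.69 and 0.64 on log2(TPM + 0.1) and log2(TPM + 1), Cyp4f17, at 0.43 by library totals and with adjusted p of 0.071 without the count filter, 0.053 with 2500 cells only and 0.14 without bulk replicate 1 (edgeR), and Cyp2s1, which lost its call in 8 alternatives. Library totals moved the median log2 fold change of all genes to 1.37, against 0.17 with TMM, and DESeq2 size factors to 0.05; for members the calls were 5 higher and 47 lower by totals. The cause of these changes beyond the scaling was not tested. Leaving out 1 library gave 4 to 5 members higher, 48 to 49 lower, 19 to 21 members at 1 CPM in sorted cells, 420.2 to 427.4 TPM in sorted cells and 13940 to 14083 TPM in bulk liver, and 0 members called by cell number. By counts per kilobase of exon the summed level was 694 TPM-like units in sorted cells and 15917 in bulk liver. At 0.5 CPM 32 members counted as present in sorted cells. For any difference between cell numbers, 1 member was called without the filter on low counts (Cyp2c54) and 4 with bulk liver kept in the fit (Cyp2c23, Cyp2f2, Cyp2c54, Cyp2d10), and for 2500 against 20000 cells 1 (Cyp2c23) with bulk liver kept. Whether equal replicate numbers mark pairs is not known. The correlation of deviations between such libraries ran from -0.083 to 0.061 over 26 pairs. With 2 or 3 libraries per group this cannot tell whether libraries share an animal. With the replicate block 4 members were higher, 49 lower and 0 called by cell number, Cyp2s1 having an adjusted p of 0.053 (edgeR). Depth limits the members with few counts, such as Cyp2s1 with 8 counts in bulk liver.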
